A study of Gallus gallus with 31 samples.

Results

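The genes described here are 6 members of G protein signalling in chicken fat: the alpha-1B adrenoceptor ADRA1B, the adenosine A1 receptor ADORA1, the G protein alpha subunit GNA11, and the regulators of G protein signalling RGS2, RGS3 and RGS4. They were taken by gene symbol from an expression table of 564 genes, and all 6 were found there with 1 line each. Their Entrez numbers are 373890 (ADRA1B), 374212 (ADORA1), 374077 (GNA11), 378912 (RGS2), 395110 (RGS3) and 378901 (RGS4). All 6 passed the filter on low values, which asked for 1 FPKM (a fragment count corrected for how long the transcript is and how deeply the library was sequenced) or more in at least 7 libraries and left 423 genes for testing.

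Polyadenylated RNA was sequenced from fat collected at the heart (cardiac) and from the abdominal fat pad of male chickens at 42 days after hatch. The birds were of a Ross broiler line or of a line that the labels name only as Illinois, and every library is labelled as a control, with no treatment or altered gene in any group. There were 4 Ross cardiac and 4 Ross abdominal libraries of a trial named Fall 13, 4 Ross cardiac and 4 Ross abdominal libraries of a trial named Fall 12, and 8 Illinois cardiac and 7 Illinois abdominal libraries, all of Fall 13. The labels do not say that the 31 libraries came from separate birds, and every p-value here reflects variation among libraries, which may be technical.

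In vertebrates, noradrenaline acts on alpha-1 receptors such as ADRA1B, which couple to G proteins of the Gq family. GNA11 encodes an alpha subunit of that family, and its active form switches on phospholipase C and calcium release. Adenosine, formed from ATP around cells, acts on ADORA1, which couples to inhibitory G proteins and, in the fat cells of mammals, lowers cyclic AMP and restrains the breakdown of stored fat. RGS proteins shorten these signals by speeding the hydrolysis of GTP on the alpha subunit. RGS2 acts mainly on Gq subunits in mammals, while RGS3 and RGS4 act on both Gq and inhibitory subunits.

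The libraries differed in depth and in the levels of cell type markers. Total depth is not given, and the steps between low FPKM values gave depths relative to the typical library of 0.663 to 0.916 in Ross cardiac Fall 13, 0.526 to 0.754 in Ross abdominal Fall 13, 0.910 to 1.04 in Ross cardiac Fall 12, 0.594 to 0.702 in Ross abdominal Fall 12, 0.926 to 2.27 in Illinois cardiac and 1.19 to 1.62 in Illinois abdominal libraries. At median depth, 1 FPKM stood for about 27.2 fragments in a typical low gene. Of 10 fat cell markers, 4 were in the table, and their summed FPKM was 5039 to 26332 in Ross cardiac, 12467 to 17150 in Ross abdominal, 2108 to 15500 in Illinois cardiac and 16657 to 30223 in Illinois abdominal libraries. The marker FABP4 alone stood at 4865 to 25932 FPKM in Ross cardiac and 1959 to 15238.5 FPKM in Illinois cardiac libraries, so the cardiac sums mostly reflect that gene. CASQ2, a calcium-binding protein of muscle, stood at 77.2 FPKM in library 1208 and 18.1 FPKM in library 1209 of Ross cardiac Fall 12, and at 36.3 FPKM in library 1107 and 27.5 FPKM in library 1112 of Illinois cardiac fat. In the other 12 cardiac libraries it was below 10 FPKM, and values without these 4 libraries are given where they change a result. In whole tissue, fewer cells of a type and less RNA per cell cannot be told apart.

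**Figure D1:**
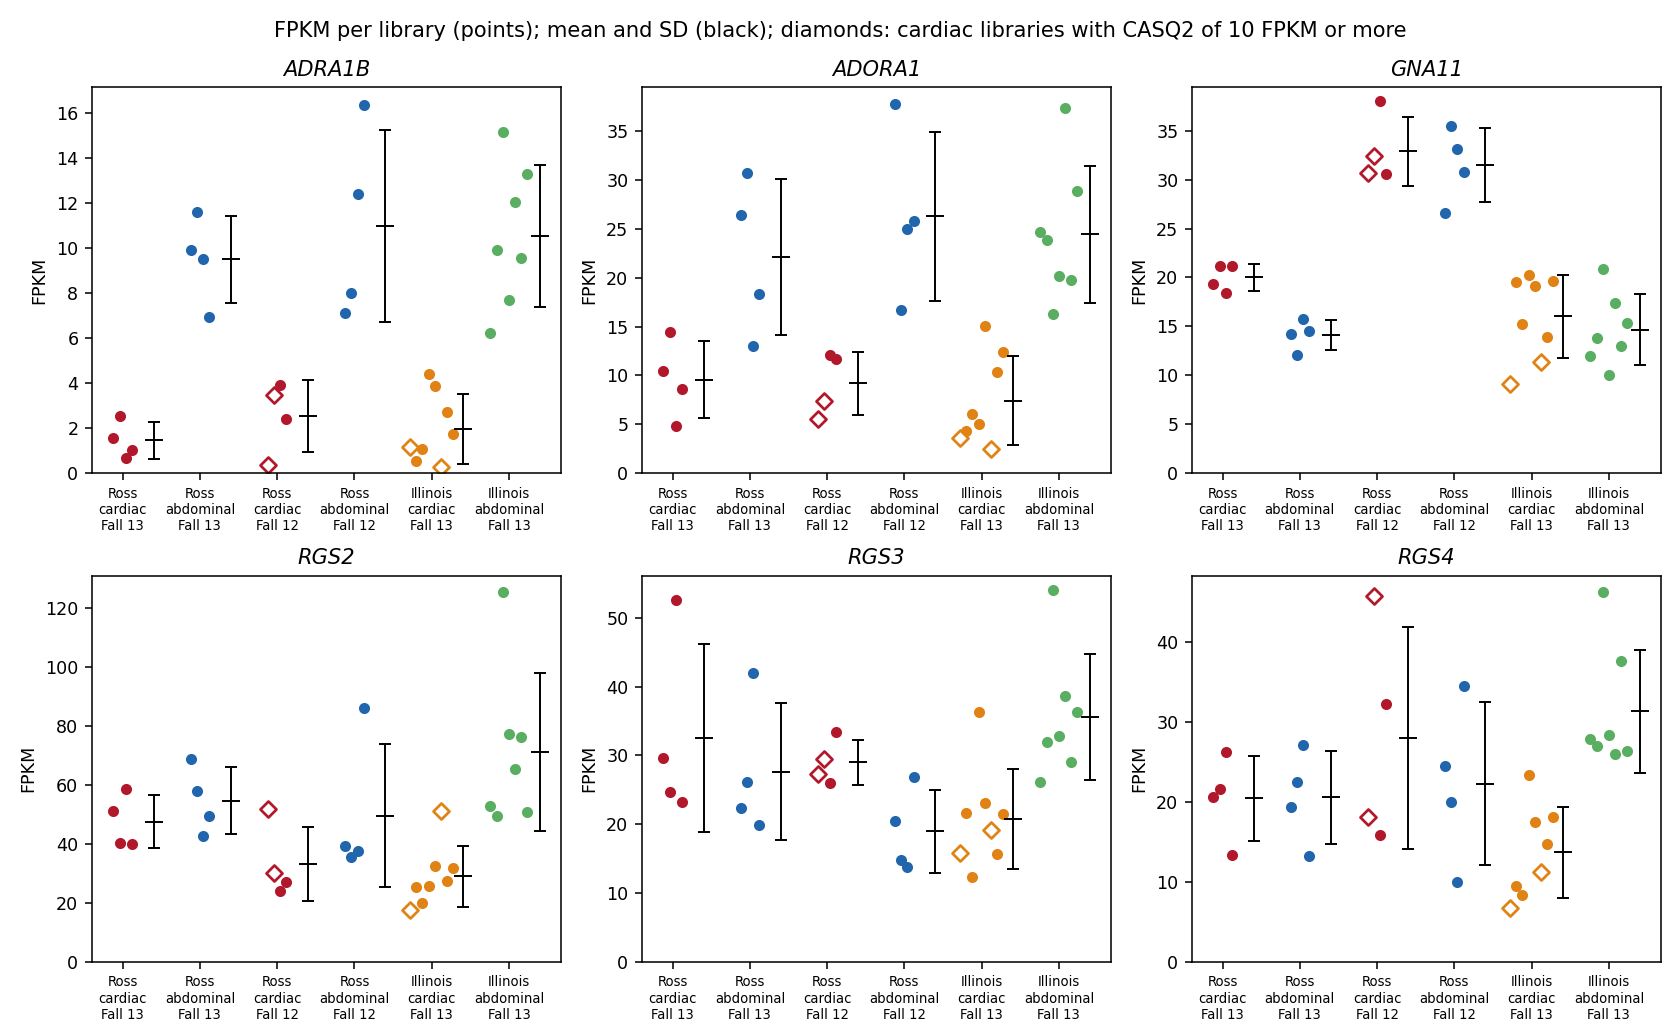
FPKM (linear axes from 0) of the 6 genes in each library, by line, depot and trial, with the mean and SD of each group in black beside the points and open diamonds for the 4 cardiac libraries with CASQ2 of at least 10 FPKM. ADRA1B was at most 4.43 FPKM in every cardiac library and at least 6.21 FPKM in every abdominal one, GNA11 was at least 26.5 FPKM in the 8 Fall 12 libraries and at most 21.2 FPKM in all others, and RGS4 was lower in Illinois cardiac than in Illinois abdominal fat without overlap.

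FPKM is a value per length of transcript, so levels can be set side by side between genes. RGS2 had the highest median of the 6 genes over all libraries, 42.4 FPKM, with a range of 17.5 to 125 FPKM, and ranked 92 of the 423 tested genes. RGS3 followed with a median of 26.1 FPKM (12.4 to 54.0) and RGS4 with 21.6 FPKM (6.68 to 46.4). GNA11 had a median of 19.2 FPKM (9.12 to 38.0) and ADORA1 one of 14.4 FPKM (2.50 to 37.7). ADRA1B was the lowest, with a median of 4.43 FPKM, a range of 0.285 to 16.3 FPKM and rank 336. By median, RGS2 led in 5 of the 6 groups and GNA11 led in Ross cardiac Fall 12, while ADRA1B came last in all 6. RGS2 lies within the span of RGS4 in RefSeq's annotation of assembly GRCg7b, and other genes of the family also overlap that span. The strands and exons of the 2 genes were not compared, and the sources used here do not say whether counting used the strand. Fragments of RGS2 and RGS4 may therefore have been shared, which was not tested.

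The first question was how the fat around the heart differs from the abdominal pad in each line. ADRA1B, a receptor for noradrenaline, was lower in cardiac fat in both lines and both trials, by 3.59-fold to 4.39-fold on the scale of log2(FPKM + 1), and its ranges in the depots did not overlap. ADORA1, a receptor for adenosine, was lower in cardiac fat as well, by 2.21-fold to 3.34-fold. The 3 RGS genes were lower in cardiac fat of the Illinois line, while none of them was called between the depots of Ross birds. GNA11 was not called between depots in either line by the limma fit.

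In Ross birds of Fall 13, ADRA1B stood at 1.55, 2.55, 0.695 and 1.02 FPKM in the cardiac libraries, against 9.92, 11.6, 9.53 and 6.94 FPKM in the abdominal libraries. In those of Fall 12 it stood at 0.358, 3.48, 3.90 and 2.42 FPKM in cardiac fat, against 7.13, 7.99, 12.4 and 16.3 FPKM in abdominal fat. The 8 Illinois cardiac libraries ran from 0.285 FPKM through a median of 1.45 to 4.43 FPKM, and the 7 Illinois abdominal libraries from 6.21 through 9.91 to 15.2 FPKM. Every cardiac library lay below every abdominal library, within each line and across lines. The log2 fold change was -2.13 in Ross Fall 13 (SE 0.41, adjusted p = 0.000584), -1.84 in Ross Fall 12 (SE 0.41, adjusted p = 0.00369) and -2.08 in Illinois birds (SE 0.30, adjusted p = 1.13e-05), by limma over the 423 genes with Benjamini-Hochberg adjustment. Averaged over the Ross trials it was -1.99 (SE 0.29, adjusted p = 1.44e-05). The size depends on the pseudocount, since the cardiac values are low: with 0.1 in place of 1 the log2 fold change was -2.75 in Ross Fall 13, -2.38 in Ross Fall 12 and -2.73 in Illinois birds.

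Groups without overlap are common where each holds 4 libraries: 9.46% of tested genes were lower without overlap in Ross cardiac Fall 12 and 4.49% in Ross cardiac Fall 13, and 2.84% were so in Illinois cardiac fat. Of the 423 tested genes, 2 (0.473%) were lower without overlap in all 3 comparisons, ADRA1B and PITX1, a homeobox factor of the hindlimb. PITX1 had log2 fold changes of -2.95 in Ross Fall 13 (adjusted p = 7.62e-05), -1.38 in Ross Fall 12 (adjusted p = 0.0574) and -1.91 in Illinois birds (adjusted p = 0.000215, limma with Benjamini-Hochberg adjustment). It was at most 0.192 FPKM in every cardiac library and passed the filter on low values through abdominal fat only. In Ross Fall 12 its highest cardiac value was 0.139 FPKM and its lowest abdominal value 0.193 FPKM. At median depth, 1 fragment of a typical low gene was worth 0.0368 FPKM.

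The lowest ADRA1B value of each line's cardiac fat came from a library with a muscle signal. Library 1112 held the lowest value of the Illinois group, 0.285 FPKM, with 1959 FPKM of FABP4, the fatty acid carrier of fat cells, which was also the lowest of the group. In library 1108, with the next lowest ADRA1B value of 0.519 FPKM, CASQ2 was at 0.211 FPKM. Library 1208 held the lowest of the Ross group, 0.358 FPKM, with 77.2 FPKM of CASQ2 and 4865 FPKM of FABP4. Library 1107, with 36.3 FPKM of CASQ2, held 1.16 FPKM of ADRA1B, rank 4 from the lowest in Illinois cardiac fat. Library 1209, with 18.1 FPKM of CASQ2, held 3.48 FPKM of ADRA1B, rank 7 from the lowest in Ross cardiac fat. Without the 4 libraries with CASQ2 of at least 10 FPKM, the log2 fold change of ADRA1B was -1.81 in Ross birds over both trials (adjusted p = 5.05e-05), -1.48 in Ross Fall 12 (adjusted p = 0.0435) and -1.86 in Illinois birds (adjusted p = 2.42e-05, limma). Ross cardiac Fall 12 then holds only libraries 1210 and 1211. FABP4 itself was not called between the Ross depots (log2 fold change 0.09, SE 0.34, adjusted p = 0.860), and it was lower in Illinois cardiac fat (log2 fold change -1.64, adjusted p = 0.000993). After quantile normalization, which sets the top gene of each library to the same value, FABP4 showed no difference there (adjusted p = 1), and without the 4 libraries its log2 fold change was -1.17 (adjusted p = 0.00104). The part of muscle and fat cell content in the ADRA1B difference was not tested further.

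ADORA1 followed the same order with more overlap. In Ross Fall 13 it stood at 10.49, 14.4, 4.86 and 8.57 FPKM in cardiac fat, against 26.4, 30.7, 13.0 and 18.3 FPKM in abdominal fat. In Ross Fall 12 it stood at 5.56, 7.37, 12.1 and 11.7 FPKM in cardiac fat, against 37.7, 16.7, 25.0 and 25.8 FPKM in abdominal fat. The groups of Fall 12 did not overlap, and in Fall 13 the highest cardiac library, 1205, exceeded the lowest abdominal library, 1197. Illinois cardiac libraries ran from 2.50 FPKM through a median of 5.57 to 15.0 FPKM, and Illinois abdominal libraries from 16.3 through 23.9 to 37.4 FPKM, again without overlap.

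The log2 fold change of ADORA1 was -1.28 over both Ross trials (SE 0.28, adjusted p = 0.00115), with 7 of 8 cardiac libraries below every abdominal one, and -1.74 in Illinois birds (SE 0.29, adjusted p = 8.63e-05, limma with Benjamini-Hochberg adjustment). Within Fall 12 it was -1.43 (SE 0.40, adjusted p = 0.0159), and without libraries 1208 and 1209 it was -1.03 and not called (adjusted p = 0.179). That leaves only libraries 1210 and 1211 in the cardiac group, with an SE of 0.43. The part of the smaller group in the lost call was not tested. Within Fall 13 it was -1.14 (SE 0.40, adjusted p = 0.0490), close to the threshold. The exact permutation test of that trial gave p = 0.0571, two-sided, where 4 against 4 libraries cannot go below 0.0286. The Fall 12 call was lost without library 1199 (-1.24, adjusted p = 0.0632) or library 1208 (-1.24, adjusted p = 0.0668), and the Fall 13 call without any 1 of 20 libraries, at most to -0.89 without library 1206 (adjusted p = 0.185).

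The ratio of the 2 receptors also differed between depots. The ratio of ADORA1 to ADRA1B in FPKM had a median of 6.89 in Ross cardiac Fall 13, against 2.65 in Ross abdominal Fall 13, and of 3.96 in Ross cardiac Fall 12, against 2.05 in Ross abdominal Fall 12. In Illinois birds the median ratio was 4.83 in cardiac fat, against 2.41 in abdominal fat. The ranges of the ratio overlapped between depots except in Ross Fall 13, where the cardiac libraries held 5.65 to 8.37 and the abdominal libraries 1.36 to 2.66. These ratios are a description and were not tested.

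RGS2, which acts on Gq subunits, ran from 17.5 FPKM through a median of 26.4 to 51.1 FPKM in Illinois cardiac fat, against 49.4 through 65.4 to 125 FPKM in Illinois abdominal fat. Of 8 cardiac libraries, 7 lay below every abdominal library, and the exception was library 1112, where CASQ2 was at 27.5 FPKM. Library 1107, with more CASQ2 (36.3 FPKM), held the lowest RGS2 value of the group, 17.5 FPKM. The log2 fold change was -1.26 (SE 0.23, adjusted p = 0.000215, limma with Benjamini-Hochberg adjustment), and with the 4 CASQ2 libraries left out it was -1.31 (adjusted p = 0.000116).

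RGS3 ran from 12.4 FPKM through a median of 20.4 to 36.3 FPKM in Illinois cardiac fat, against 26.1 through 32.9 to 54.0 FPKM in Illinois abdominal fat. Again 7 of 8 cardiac libraries lay below every abdominal one, and here library 1110 was the exception. The log2 fold change was -0.78 (SE 0.21, adjusted p = 0.00799, limma). RGS4 ran from 6.68 FPKM through 13.0 to 23.4 FPKM in Illinois cardiac fat, against 26.0 through 28.0 to 46.4 FPKM in Illinois abdominal fat, with no overlap. Its log2 fold change was -1.21 (SE 0.27, adjusted p = 0.0013, limma).

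With ADRA1B and ADORA1, 5 of the 6 genes were therefore called between the Illinois depots, all lower in cardiac fat. Over all tested genes 19.1% were called there, 11.1% as lower, and the median log2 fold change of the 6 genes was -1.24, against -0.02 over all tested genes. The calls over all genes split into 34 higher and 47 lower, into 39 and 70 after quantile normalization, and into 53 and 43 after upper quartile scaling. Relative depth had a median of 1.08 in the cardiac libraries (0.926 to 2.27) and of 1.49 in the abdominal libraries (1.19 to 1.62). The part of depth in these differences was not tested.

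In Ross birds none of the 3 RGS genes was called between depots by the limma fit. RGS2 stood at 51.1, 40.3, 58.6 and 39.8 FPKM in cardiac fat of Fall 13, against 68.6, 57.8, 42.4 and 49.3 FPKM in abdominal fat, and the groups overlapped. In Fall 12 it stood at 51.6, 29.99, 24.1 and 27.1 FPKM in cardiac fat, against 39.2, 35.4, 37.7 and 86.0 FPKM in abdominal fat, and 3 of 4 cardiac libraries lay below every abdominal one. Its log2 fold change over both trials was -0.36 (95% interval -0.81 to 0.10, adjusted p = 0.251, limma).

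RGS3 was 23.3 to 52.6 FPKM in the 8 Ross cardiac libraries and 13.8 to 42.0 FPKM in the 8 Ross abdominal libraries, a log2 fold change of 0.42 (95% interval 0.0032 to 0.84, adjusted p = 0.130, limma). In Fall 12 alone, 3 of 4 cardiac libraries lay above every abdominal library (log2 fold change 0.63, adjusted p = 0.150), and RGS3 was called there with array weights (0.75, adjusted p = 0.0357). RGS4 was 13.4 to 45.8 FPKM in Ross cardiac and 9.96 to 34.6 FPKM in Ross abdominal libraries, a log2 fold change of 0.16 (95% interval -0.37 to 0.68, adjusted p = 0.699). For both genes the depots overlapped in each trial.

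Of the 6 genes, 2 were called over both Ross trials, against 28.8% of all tested genes, and the same number in Fall 13, against 15.8%, and in Fall 12, against 13.0%. Both were lower in cardiac fat, a direction in which 10.2% of tested genes were called over both trials, 3.78% in Fall 13 and 4.73% in Fall 12. The median log2 fold change of the 6 genes over both trials was -0.10, and that of all tested genes was 0.10. Calls over all genes split into 79 higher and 43 lower over both trials, but into 59 and 63 after quantile normalization. Within Fall 13 the split was 51 and 16, against 34 and 39 after quantile normalization and 55 and 31 after upper quartile scaling, and within Fall 12 it was 35 and 20, against 27 and 33 after quantile normalization. Ross cardiac and Ross abdominal libraries of Fall 12 did not overlap in depth.

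**Figure D2:**
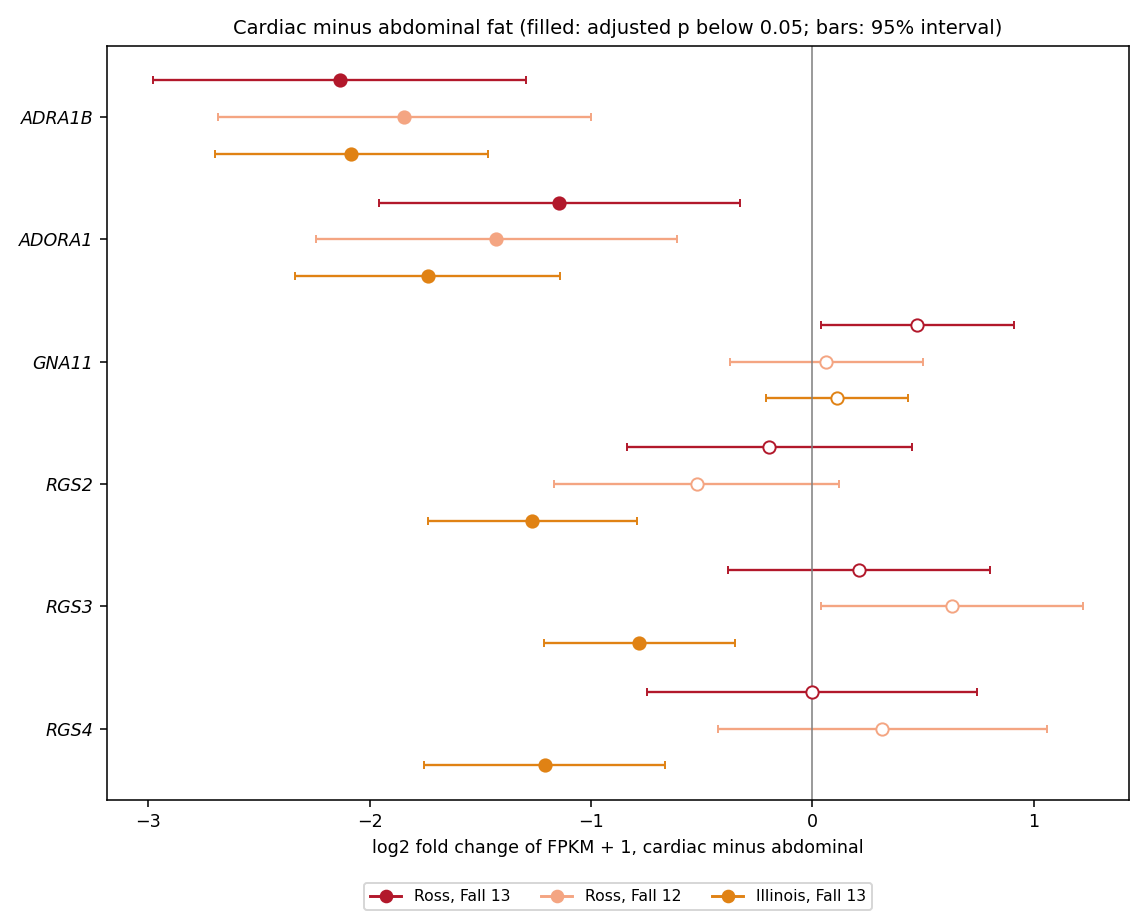
Log2 fold change of FPKM + 1, cardiac minus abdominal fat, of each gene with its 95% interval in Ross Fall 13, Ross Fall 12 and Illinois Fall 13 (top to bottom within a gene), with filled points for an adjusted p below 0.05 by limma. ADRA1B and ADORA1 lie below 0 in all 3, and RGS2, RGS3 and RGS4 are called in Illinois birds only. The difference of depot effects between the lines was not called for these 3 RGS genes by the main limma fit (adjusted p of 0.105 to 0.116).

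Whether the depot difference itself differed between the lines was tested within Fall 13, the trial that both lines share. The difference of the depot effects, Ross minus Illinois, was 1.21 for RGS4 (SE 0.45, adjusted p = 0.116), 1.07 for RGS2 (SE 0.39, adjusted p = 0.108) and 0.99 for RGS3 (SE 0.36, adjusted p = 0.105) on the log2 scale by limma. None of the 6 genes was called, against 3.31% of all tested genes. Of the 6, 3 had an unadjusted limma p below 0.05. The share of all tested genes at that threshold was not counted, so the 3 are not read as an excess. With trial as an additive term, which brings in the Fall 12 libraries, RGS3 (1.202, adjusted p = 0.0148) and RGS4 (1.37, adjusted p = 0.0248) were called and RGS2 was not (0.91, adjusted p = 0.0681). Calls over all 423 tested genes rose to 46 with that term, against 14 in the main fit. Without library 1110, RGS3 was called within Fall 13 too (1.11, adjusted p = 0.0466). Among the fat cell markers, CAV1 differed in the same direction (1.58, adjusted p = 0.00501, but 0.98 and 0.10005 after quantile normalization), and its part in the RGS values was not tested. ADRA1B had a difference of -0.05 (95% interval -1.09 to 0.99) and ADORA1 one of 0.60 (95% interval -0.42 to 1.61).

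GNA11, the Gq family subunit, was called between the Ross trials in both depots. In Ross abdominal fat it stood at 14.2, 12.1, 15.8 and 14.6 FPKM in Fall 13, against 26.5, 35.5, 33.1 and 30.8 FPKM in Fall 12. In Ross cardiac fat it stood at 19.3, 21.2, 18.4 and 21.1 FPKM in Fall 13, against 30.7, 32.4, 38.0 and 30.5 FPKM in Fall 12. In neither depot did the trials overlap. The log2 fold change, Fall 13 minus Fall 12, was -1.10 in abdominal fat (SE 0.21, adjusted p = 0.000516) and -0.69 in cardiac fat (SE 0.21, adjusted p = 0.0380, limma with Benjamini-Hochberg adjustment). Illinois libraries, all of Fall 13, ran from 9.12 through 17.2 to 20.3 FPKM in cardiac and from 10.1 through 13.8 to 20.9 FPKM in abdominal fat, below every Fall 12 library of either depot.

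The typical gene of the table was also lower in Fall 13. The median log2 fold change of all tested genes was -0.30 in abdominal and -0.17 in cardiac fat, and relative to it GNA11 changed by -0.80 in abdominal and -0.52 in cardiac fat. Lower without overlap were 28.8% of tested genes in abdominal fat and 10.4% in cardiac fat, and the shares called in either direction were 25.8% and 10.4%, those called as lower 22.5% and 9.69%. GNA11 was the 1 gene of the 6 called in each depot. Both fibroblast markers in the table were lower in Fall 13 abdominal fat as well, FBLN1 by -2.20 (adjusted p = 0.000619) and PRRX1 by -2.41 (adjusted p = 0.00298), and neither was called in cardiac fat. The smooth muscle marker CALD1 was lower in Fall 13 abdominal fat (-1.57, adjusted p = 0.000212) and the nerve marker CHRNA3 in Fall 13 cardiac fat (-2.47, adjusted p = 0.000432). The part of these markers in the GNA11 difference was not tested. After quantile normalization, which removes such a shift, GNA11 was called in abdominal fat (-0.62, adjusted p = 0.0234) but not in cardiac fat (-0.46, adjusted p = 0.136), and calls over all genes went to 38 higher and 51 lower in abdominal fat, against 14 and 95 on the values as given. In cardiac fat they went to 18 higher and 21 lower, against 3 and 41. Without any 1 of 7 Ross cardiac libraries (1204 to 1210) the cardiac call of GNA11 was lost, with an adjusted p between 0.0504 and 0.103. RGS3 was called as higher in Fall 13 abdominal fat after quantile normalization (0.83, adjusted p = 0.0346) and upper quartile scaling (0.85, adjusted p = 0.0220), and not on the values as given (0.51, adjusted p = 0.204).

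Between depots, GNA11 was higher without overlap in Ross cardiac Fall 13, at 18.4 to 21.2 FPKM, against 12.1 to 15.8 FPKM in Ross abdominal Fall 13, and it was not called (log2 fold change 0.47, SE 0.21, adjusted p = 0.132, limma), although it was with array weights (0.50, adjusted p = 0.0498). In that comparison 18.2% of tested genes were higher without overlap. The exact permutation test gave p = 0.0286, two-sided, the smallest that 4 against 4 libraries allow. Over both Ross trials the log2 fold change was 0.27 (SE 0.15, adjusted p = 0.201, limma), and the exact permutation test, unadjusted, gave p = 0.0131. In Fall 12 the log2 fold change was 0.06 (SE 0.21) and in Illinois birds 0.11 (SE 0.16), with overlap in both. The difference between the trial effects of the 2 Ross depots was 0.41 for GNA11 (SE 0.30, adjusted p = 0.605), and no gene of the 6 was called there, against 1.18% of all tested genes. No gene of the 6 had an unadjusted p below 0.05 there.

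**Figure D3:**
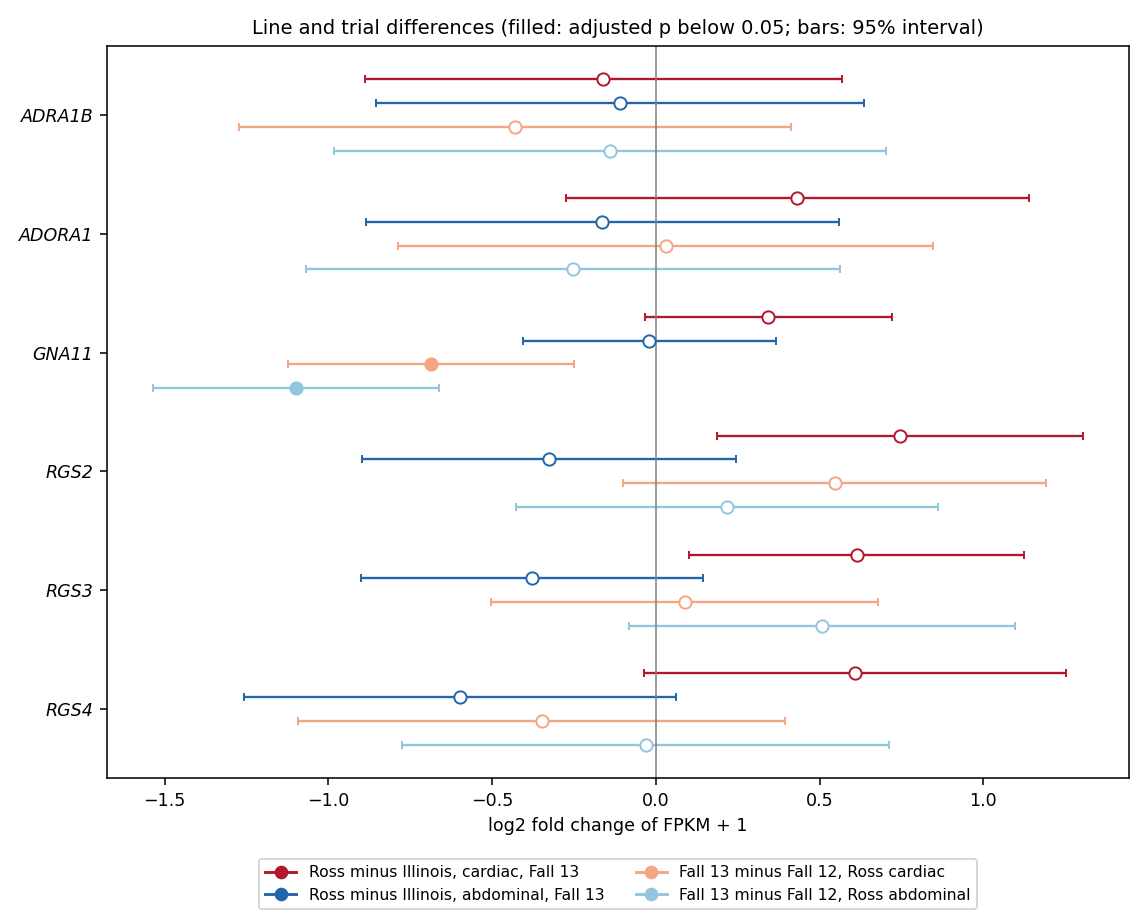
Log2 fold change of FPKM + 1 with its 95% interval, Ross minus Illinois within Fall 13 in cardiac and abdominal fat, and Fall 13 minus Fall 12 in Ross cardiac and abdominal fat (top to bottom within a gene), with filled points for an adjusted p below 0.05 by limma. The trial effects of GNA11, -0.69 in cardiac and -1.10 in abdominal fat, are the called ones, and each RGS gene lies above 0 in cardiac and below 0 in abdominal fat between the lines, with none called.

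Between the lines within Fall 13, none of the 6 genes was called by limma in either depot, while 15.8% of tested genes were called in abdominal and 5.67% in cardiac fat. Calls split into 14 higher and 53 lower in abdominal fat, but 31 and 37 after quantile normalization, and into 19 and 5 in cardiac fat, but 20 and 12 after quantile normalization and 9 and 22 after upper quartile scaling. In cardiac fat the RGS genes had positive values, 0.74 for RGS2 (adjusted p = 0.102), 0.61 for RGS3 (adjusted p = 0.144) and 0.61 for RGS4 (adjusted p = 0.245). There 2 of the 6 genes had an unadjusted limma p below 0.05. The share of all tested genes at that threshold was not counted, so the 2 are not read as an excess. In abdominal fat the values were -0.33 for RGS2 (adjusted p = 0.455), -0.38 for RGS3 (adjusted p = 0.324) and -0.60 for RGS4 (adjusted p = 0.206), and no gene of the 6 had an unadjusted p below 0.05. Exact permutation tests, two-sided and not adjusted over genes, gave p = 0.0182 for RGS2 in cardiac and p = 0.0121 for RGS4 in abdominal fat. RGS4 stood at 19.4, 22.6, 27.1 and 13.2 FPKM in Ross abdominal Fall 13, and 3 of these 4 libraries lay below every Illinois abdominal library. For ADRA1B the line difference was -0.16 in cardiac (95% interval -0.89 to 0.57) and -0.11 in abdominal fat (-0.86 to 0.64). Within Fall 13, Ross and Illinois libraries did not overlap in depth in either depot (0.663 to 0.916 in Ross cardiac, against 0.926 to 2.27 in Illinois cardiac fat), so depth and line cannot be told apart.

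Ordered by median FPKM, neighbouring groups were separated without overlap at 1 place for ADRA1B, at 1 place for GNA11 and nowhere for the other 4 genes. The order was set by each gene's own medians. The share of all tested genes with such a gap was not counted, so these gaps are a description only. ADRA1B went from Ross cardiac Fall 13 (1.29) through Illinois cardiac (1.45), Ross cardiac Fall 12 (2.95), Ross abdominal Fall 13 (9.73) and Illinois abdominal (9.91) to Ross abdominal Fall 12 (10.2), and its neighbours overlapped except where cardiac met abdominal fat. GNA11 went from Illinois abdominal (13.8) through Ross abdominal Fall 13 (14.4), Illinois cardiac (17.2), Ross cardiac Fall 13 (20.2) and Ross cardiac Fall 12 (31.5) to Ross abdominal Fall 12 (31.9), with a gap only between the trials. For ADORA1 the medians were 5.57 to 9.53 FPKM in the 3 cardiac groups and 22.4 to 25.4 FPKM in the 3 abdominal groups, and all neighbours overlapped. For RGS2, RGS3 and RGS4 all neighbours overlapped, with Illinois abdominal fat the highest for each, at 65.4, 32.9 and 28.0 FPKM. Illinois cardiac fat was the lowest for RGS2 (26.4 FPKM) and RGS4 (13.0 FPKM), and Ross abdominal Fall 12 for RGS3 (17.6 FPKM).

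Across the 31 libraries, ADRA1B and ADORA1 correlated at r = 0.857 in log2(FPKM + 1), and at r = 0.538 once the mean of each of the 6 groups was taken away. RGS3 and RGS4 correlated at r = 0.746, and at r = 0.693 within groups, the highest within-group value among the 15 pairs. RGS2 correlated with RGS4 at 0.601 and with RGS3 at 0.541, and within groups with RGS4 at 0.403. ADORA1 and RGS2 correlated at 0.496 over all libraries, but at -0.171 within groups. These values are descriptions over libraries that share depth and tissue makeup. Library 1094 was the highest of the Illinois abdominal group for RGS2 (125 FPKM), RGS3 (54.0 FPKM), RGS4 (46.4 FPKM), ADRA1B (15.2 FPKM) and GNA11 (20.9 FPKM) and the lowest for ADORA1 (16.3 FPKM).

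**Figure D4:**
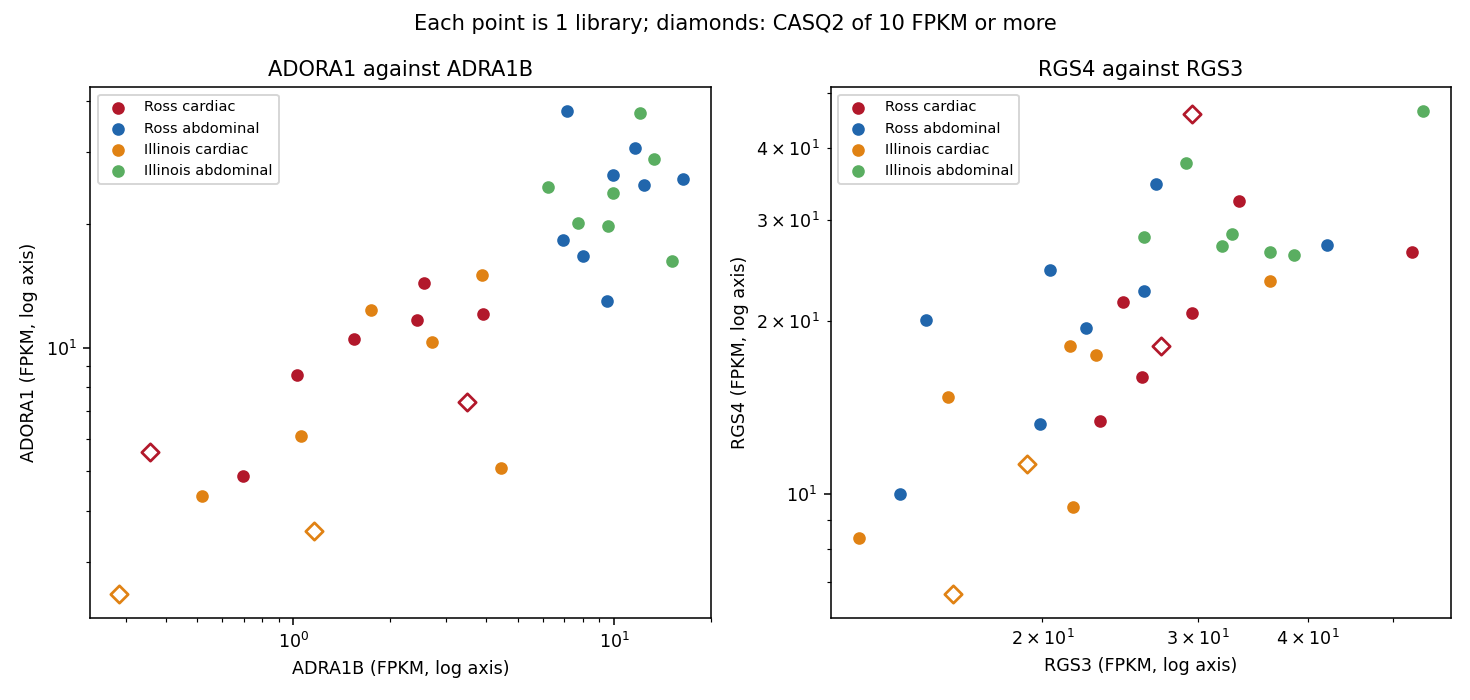
ADORA1 against ADRA1B and RGS4 against RGS3, in FPKM on log axes, with 1 point per library coloured by line and depot and open diamonds for CASQ2 of at least 10 FPKM. On the left, cardiac and abdominal libraries form separate clouds along ADRA1B (r = 0.857 over 31 libraries); on the right, the lowest 3 libraries in RGS4 are Illinois cardiac and the clouds overlap (r = 0.746).

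With the 6 genes themselves left out of the ranking, the tested genes most like ADRA1B over the 31 libraries were MTFR1 (r = 0.856), a regulator of mitochondrial fission, CLDN5 (0.853), a tight junction protein of endothelium, and SGK1 (0.799), a kinase induced by glucocorticoids. MTFR1 (0.838) and CLDN5 (0.805) were also the first outside the 6 for ADORA1, followed by ITGB1 (0.793), a receptor for extracellular matrix. RGS2 was most like PITX1 (0.640), which was at most 0.192 FPKM in cardiac fat, OPTC (0.624) and PALD1 (0.607). Outside the 6, RGS3 was most like PALD1 (0.814), SOCS2 (0.613), which restrains growth hormone signalling, and ID1 (0.604), an inhibitor of DNA-binding factors. Outside the 6, RGS4 was most like the transcription factor TCF3 (0.745), CAV1 (0.741), the main protein of caveolae, and PALD1 (0.721). GNA11 was most like NAB1 (0.855), PAFAH1B1 (0.820) and RECQL5 (0.813). Of the 3 genes nearest each member, CLDN5 had the highest within-group correlation, 0.735 with ADRA1B, and OPTC the lowest, 0.125 with RGS2.

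Other genes of the pathway were few in this table of 564 genes. Absence from it does not say that a gene was not expressed, and shares over all tested genes refer to this table only. Of 11 further adrenergic and adenosine receptors only ADORA3 was present, at 0.379 to 2.89 FPKM, well below ADORA1. It was not called between depots, with a log2 fold change of -0.24 in Ross (adjusted p = 0.335) and 0.09 in Illinois birds (adjusted p = 0.769), and it was higher in Ross than Illinois abdominal fat (0.80, adjusted p = 0.0199, limma). Of 19 further genes with an RGS domain, RGS19 and AXIN2, a scaffold of the Wnt pathway, were present. Both were higher in Ross cardiac fat over both trials, RGS19 by 0.80 (adjusted p = 0.00565) and AXIN2 by 0.74 (adjusted p = 0.00810), and AXIN2 was also higher in Illinois cardiac fat (1.01, adjusted p = 0.000993). By trial, neither was called between the Ross depots in Fall 12 (median of the 2 genes 0.29), and both were higher in Fall 13 (median 1.25). RGS19 was at 4.88 to 15.1 FPKM in Ross cardiac, against 4.65 to 6.25 FPKM in Ross abdominal fat. Among RGS domain genes, then, RGS2, RGS3 and RGS4 were called lower and AXIN2 higher in Illinois cardiac fat.

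Of 30 further G protein subunits, GNAI3, an inhibitory alpha subunit, was present and not called in any comparison. Its log2 fold change between the Illinois depots was -0.92, and 1 Illinois cardiac library was listed at 0.001 FPKM, the floor of the values. Of 31 genes of cyclic AMP and lipolysis, 3 were tested. CREM, a transcription factor driven by cyclic AMP, was higher in Ross cardiac fat over both trials (0.69, adjusted p = 0.00552) and Illinois cardiac fat (0.53, adjusted p = 0.0497, limma), FABP4 was lower in Illinois cardiac fat, and CREB1, a related factor, was not called between depots. None of the 3 was called between the Ross depots within Fall 12. Of 26 genes listed for phospholipase C, calcium and protein kinase C signalling, 4 were present, the kinases CAMK2A, ROCK1 and ROCK2 and the small GTPase MRAS. No gene of a phospholipase C or a protein kinase C was among them. Of the 3 tested, MRAS was higher in Illinois cardiac fat (0.81, adjusted p = 0.0112) and none was called between the Ross depots. Between trials in Ross abdominal fat, CREB1 (-0.96), AXIN2 (-1.69), MRAS (-1.01) and the kinase ROCK2 (-0.997) were lower in Fall 13, with adjusted p of 0.0170 or less, while ADORA3 was higher (0.97, adjusted p = 0.00557). CREB1 was -0.53 (adjusted p = 0.0471) after quantile normalization. Under the scaled values ROCK2 was not called after quantile normalization (adjusted p = 0.165), nor MRAS after upper quartile scaling (adjusted p = 0.0524). Of 58 other G-protein coupled receptors, EDNRA and EDNRB2 were present, and EDNRA, a receptor for endothelin, was lower in Fall 13 Ross cardiac fat (-1.30, adjusted p = 0.0286). That call was lost after quantile normalization (-1.06, adjusted p = 0.0779) and without the CASQ2 libraries (-1.03, adjusted p = 0.150).

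Markers of cell types moved with the depots. In Illinois cardiac fat, 3 of 4 fat cell markers were lower (CAV1 by -1.52, adjusted p = 1.16e-06; PPARG, the master regulator of fat cells, by -1.21, adjusted p = 0.00187; and FABP4), as were 3 of 5 endothelial markers (CLDN5 by -1.86, CDH5 by -1.08 and FLT1 by -0.82), and both fibroblast markers, FBLN1 and PRRX1, were higher. In Ross cardiac fat over both trials, 1 of 4 fat cell markers (PPARG, -0.79, adjusted p = 0.0282, but -0.49 and 0.111 without the CASQ2 libraries) and 2 of 5 endothelial markers (SOX18 and ERG) were lower, and both fibroblast markers were higher. Within Fall 12 no fat cell, endothelial or fibroblast marker was called between the Ross depots. Within Fall 13 both fibroblast markers were higher, 1 endothelial marker was lower and no fat cell marker was called. CHRNA3, the 1 nerve marker present, was higher in Ross cardiac fat over both trials (1.42, adjusted p = 0.000749) and in Illinois cardiac fat (1.34, adjusted p = 0.00184). Between the Ross depots CHRNA3 was called in Fall 12 (2.72) and not in Fall 13 (0.11), and the difference of trial effects was called (-2.60). In Ross cardiac fat over both trials the smooth muscle marker CALD1 was lower (-0.62, adjusted p = 0.0188, but -0.43 and 0.0975 without the CASQ2 libraries). CALD1 was called in Fall 12 (-1.17) and not in Fall 13 (-0.07). Of 2 white blood cell markers, IGJ, a chain of secreted antibodies, was higher in Ross cardiac fat over both trials (2.33, adjusted p = 0.0237) and PTPRC was not called. Neither was called within Fall 12 or within Fall 13. Of the 2 heart muscle markers, MYH7B was higher in Illinois cardiac fat (2.98, adjusted p = 0.0248, and 1.82 and 0.0326 without the CASQ2 libraries). The summed endothelial markers were 103 to 305 FPKM in Ross cardiac, 174 to 394 FPKM in Ross abdominal, 83.1 to 244 FPKM in Illinois cardiac and 172 to 396 FPKM in Illinois abdominal libraries. The summed fibroblast markers were 59.8 to 232 FPKM in Ross cardiac, 5.32 to 105 FPKM in Ross abdominal, 65.9 to 137 FPKM in Illinois cardiac and 5.89 to 40.6 FPKM in Illinois abdominal libraries. The 2 heart muscle markers in the table summed to 0.226 to 172 FPKM in Ross cardiac and 0.206 to 190 FPKM in Illinois cardiac libraries, against at most 9.25 FPKM in Ross abdominal and 0.276 FPKM in Illinois abdominal libraries. Whether these marker differences reflect cell content, and any part of it in the lower receptor and RGS levels, was not tested.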

How the data were processed

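Flash-frozen abdominal and cardiac fat gave polyA RNA, and the library kit kept the strand, per the labels' protocols. Bowtie, TopHat and Cufflinks are named in the submitters' processing notes; not given in the sources used here are their versions, the build, the annotation and whether counting used the strand. Deposited values are FPKM per gene and library, scaled by the authors to transcript length and mapped fragments; the header does not name the unit, which was taken from the tools and values. Because FPKM is relative to the library's total, abundant genes such as FABP4 lower the values of the rest. Of 567 gene lines 566 were complete; 2 exact duplicates were removed, leaving 564 genes. The incomplete line was the last, so the table may be part of a longer one. All columns matched a library.

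Values were analysed as log2(FPKM + 1), a scale that understates changes of low genes, in R 4.3.3 with limma 3.58.1 (mean-variance trend, robust moderation), for genes reaching 1 FPKM in 7 or more libraries. One fit of 6 means (line, depot and trial) over all 31 libraries gave every contrast, two-sided, with Benjamini-Hochberg adjustment over 423 genes and calls at an adjusted p below 0.05. Single values were checked by exact permutation of libraries, unadjusted. Alternatives were pseudocounts, filters, scalings, an additive trial term, array weights, plain moderation, leaving out libraries with CASQ2 of at least 10 FPKM, and leaving out each library.

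Relative depth came from the steps of 807 low values in 56 genes, of which 99.9% were within 0.05 fragments of a whole number, against 12.1% with depths shuffled among libraries. Those genes were the ones with the most regular steps, and the depths of 4 libraries were halved because their fragment numbers were all even. The limma fit was tested on simulated data. The 6 genes and all lists were chosen with earlier results of these data known. Named genes are the 6, the 3 most correlated tested genes for each, and up to 4 called genes per list and comparison; PITX1 was also named after its values were seen. The RefSeq table of assembly GRCg7b matched 562 of 564 Entrez numbers, all 6 genes under the same symbol, and was used for names and neighbours only.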

Additional observations from a re-analysis of the deposited data

Results flagged for a closer look

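Dixon's criterion was applied to FPKM without logs in 24 sets of 7 or 8 libraries (6 genes in 4 groups of line and depot). In 5 sets, the gap of a library to the nearest other was large for the range of its group. Chance flags about 1 in 20 sets only where values are normally distributed. The criterion was not run on log2 values, so the 5 are not read as an excess. All 5 were of RGS genes and lay at the top of their group. RGS2 was at 125.3 FPKM in Illinois abdominal library 1094 and at 51.1 FPKM in Illinois cardiac library 1112, a library with a CASQ2 signal. Library 1107, also with a CASQ2 signal, held the lowest RGS2 value of Illinois cardiac fat, 17.5 FPKM. RGS3 was at 52.6 FPKM in Ross cardiac library 1206, at 42.0 FPKM in Ross abdominal library 1197 and at 36.3 FPKM in Illinois cardiac library 1110. Without library 1112 the log2 fold change of RGS2 between the Illinois depots kept its call, and without library 1110 so did that of RGS3.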

How the results depend on the processing

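Of the 13 member values called, each tried under the alternatives and without each library, 514 kept direction and call, 37 lost the call and 0 changed sign; of the values not called (47), 1898 stayed so, 15 became called and 50 changed sign. ADRA1B kept its call in all 4 depot contrasts under every alternative. Leaving out the 4 CASQ2 libraries gave ADORA1 -1.03 and 1 gene called in Ross Fall 12. In Ross Fall 13 ADORA1 lost its call at a pseudocount of 0.1 (-1.23) or 0.5 (-1.19), with no filter (-1.14) or array weights (-0.93) and by the exact test (-1.14), with 1 gene called at both pseudocounts and with no filter. Without each library, ADORA1 was -1.62 to -1.24 in Fall 12 and -1.36 to -0.89 in Fall 13, with 1 to 2 genes called in each. For the difference of depot effects, 2 genes were called with the additive trial term and 2 with the replicate block, and 0 to 1 without each library. The exact test was taken at p below 0.05 without adjustment, here and in the counts above. Between lines it passed RGS4 in abdominal and RGS2 in cardiac fat, with limma adjusted p of 0.206 and 0.102. The share of all tested genes passing the exact test was not counted. Between trials, quantile and upper quartile scaling each called 2 genes in abdominal fat. In cardiac fat GNA11 lost its call under a filter of 5 FPKM (-0.69) and quantile normalization (-0.46), with 0 genes called in both, and ran from -0.72 to -0.62 without each library, with 0 to 1 called.

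The values that changed sign were all among those not called in the main fit. For ADRA1B they were 0.040 (quantile), 0.094 (additive term) and 0.024 (array weights) for the difference of depot effects, 0.091 in abdominal and 0.13 in cardiac fat between lines (quantile), and between trials 0.25 (quantile) and 0.19 (upper quartile) in abdominal and 0.036 (quantile) in cardiac fat. GNA11 between lines in abdominal fat was 0.12 (quantile), 0.0014 (upper quartile) and 0.083 (additive term). Between trials in abdominal fat ADORA1 was 0.12 and 0.093 and RGS4 0.34 and 0.31 under the same scalings, and RGS4 0.022 with array weights. Between trials in cardiac fat RGS3 was -0.13 with array weights, and without the CASQ2 libraries ADORA1 was -0.37, with -0.11 for the difference of trial effects. Without each library, sign changes gave -0.0033 to 0.28 for RGS4 over both Ross trials; in Fall 12 -0.0055 to 0.56 for RGS4 and -0.013 to 0.12 for GNA11; in Fall 13 -0.040 to 0.43 for RGS3 and -0.19 to 0.18 for RGS4. ADRA1B ran from -0.25 to 0.11 for the difference of depot effects. Between lines in abdominal fat the ranges were -0.21 to 0.018 (ADRA1B), -0.34 to 0.055 (ADORA1) and -0.10 to 0.067 (GNA11). Between trials they were -0.30 to 0.061 (ADRA1B) and -0.35 to 0.21 (RGS4) in abdominal fat, -0.18 to 0.29 (ADORA1) and -0.16 to 0.22 (RGS3) in cardiac fat, and -0.56 to 0.0044 (RGS4) for the difference. The cause of these changes was not tested.

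Counts over all genes moved by over 1.5 times in these cases. Ross Fall 12 had 55 calls, 87 with array weights and 21 without the CASQ2 libraries; Ross Fall 13 had 67, and 43 without library 1206. The difference of depot effects had 14, against 27 and 25 at pseudocounts of 0.1 and 0.5, 28 at a filter of 5 FPKM, 46 with the additive term, 27 with the replicate block and 7 to 33 without each library. Between lines, abdominal fat had 67, and 32 without library 1196, 41 without 1197 and 37 without 1198; cardiac fat had 24, 40 with array weights, and 8 to 36 without each library. Ross cardiac fat between trials had 44, against 18 at a filter of 5 FPKM, 26 without library 1205 and 29 without 1207. The difference of trial effects had 5, against 15 with no filter, 2 after quantile normalization, 14 with array weights and 0 to 10 without each library.

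A number in the column names is shared by 15 pairs of a cardiac and an abdominal library, but the labels do not say what it marks. Same-number deviations correlated at a median of 0.129 (-0.109 to 0.460), with 9 of 15 over 0.1, against a median of -0.044 and 11 of 73 for other pairs, and 14 of 30 libraries correlated best with their partner. That is a hint of pairing from the data, but not every pair passed 0.1, so the number was not taken to pair the libraries. With it as a replicate block, chosen after seeing the data, RGS3 (0.95, adjusted p = 0.0237) and RGS4 (1.09, adjusted p = 0.0377) were called by limma for the difference of depot effects and RGS3 between the Ross depots over both trials (0.42, adjusted p = 0.0183) and in Fall 12 (0.63, adjusted p = 0.0255). Over all 423 tested genes the block called 27, 135 and 67 in these comparisons, in that order. Low counts of fragments limit ADRA1B most, at 0.285 FPKM in its lowest library.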
